A study of Mus musculus with 7 samples.

Results

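The genes described here encode the cone proteins that carry, drive or end the light response downstream of the visual pigments. They are cone arrestin (*Arr3*), the 3 subunits of cone transducin (*Gnat2*, *Gnb3* and *Gngt2*), the catalytic and inhibitory subunits of the cone phosphodiesterase (*Pde6c* and *Pde6h*) and the 2 subunits of the cone cyclic nucleotide-gated channel (*Cnga3* and *Cngb3*). They were picked out by symbol in a GRCm38 annotation, by a rule that uses no measured value but was set with earlier results of these data known, and make up 8 of the 52550 genes of the count table. All 8 passed the expression filter and were tested with 20128 genes in all.

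In a cone, light-activated opsin switches on transducin, a G protein of an alpha, a beta and a gamma subunit. The freed alpha subunit relieves the phosphodiesterase of its inhibitory subunit, cyclic GMP is hydrolysed, and the cation channel that cyclic GMP holds open closes, which hyperpolarizes the cell. Arrestin then binds the phosphorylated opsin and stops the signal. Rods run the same cascade with their own paralogs. Loss of the alpha subunit of cone transducin, or of the cone phosphodiesterase or channel subunits, is known from inherited achromatopsia.

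Total RNA-seq was performed on the retinas of 12.5-week-old mice, of which 4 were wild type (WT) and 3 were homozygous for a knock-in of an expanded CAG repeat in *Atxn7* (SCA7), a model of spinocerebellar ataxia type 7. The inbred background was C57BL/6J in both genotypes, and both retinas of a mouse made up a library. Since the expanded allele is driven by the gene's own promoter, it is not restricted to cones or to the eye. The whole retina was used, so cone RNA was diluted by that of rods, inner neurons and glia, and fewer cones and less RNA per cone cannot be told apart in these data.

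Total counts per library were between 56497675 and 96635832, and the counts of the 8 genes in single libraries between 450 and 53335. *Atxn7* itself was at 39.2 ± 4.26 CPM (counts per 1000000 after TMM scaling by edgeR, mean ± SD, n = 4) in WT and 37.6 ± 2.98 CPM (n = 3) in SCA7, with an edgeR adjusted p of 0.64. Gene counts do not show the repeat, so they do not check the genotype. Every library held transcripts of the Y-linked *Ddx3y* (6130 to 11161 counts) and between 4 and 19 counts of *Xist*, which bears on *Arr3* as the X-linked gene of the group. Among markers of other cells, 4 of 5 genes of the retinal pigment epithelium were downregulated, with WT sums of 68.3 to 141 CPM against SCA7 sums of 11.1 to 23.2 CPM. All 6 microglial markers were upregulated, with WT sums of 32.1 to 38.1 CPM and SCA7 sums of 67.2 to 74.6 CPM. None of the markers of Müller glia (5 tested), amacrine (4), horizontal (3) or ganglion cells (4) passed the fold change limits for a call. At an edgeR adjusted p under 0.05 alone, *Glul*, *Gad1*, *Pax6*, *Calb1* and *Nefl* were lower in SCA7 (log2 fold changes of -0.44 to -0.25). The Müller glia markers *Aqp4* (0.31) and *Kcnj10* (0.33) were higher, so the markers of these glia went both ways. The part of all these cells in the results on the cone genes was not tested. WT replicate 3 had the least *Rpe65* of the WT libraries (10.6 CPM, against 22.5 to 27.3 CPM in the others) and was the highest of them for *Arr3*, *Gnat2*, *Gngt2*, *Gnb3* and *Pde6h*.

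In SCA7 retina the expression of 7 of the 8 cone genes fell, and that of *Gnb3* rose. A gene was called at an edgeR adjusted p under 0.05 with a fold change (FC, SCA7/WT) under 0.7 or above 1.3. Of all genes tested, 7.91% were called downregulated and 7.47% upregulated. The SCA7 libraries lay below every WT library for 7 of the cone genes, as for 18.3% of all genes tested, and above every WT library for *Gnb3*, as for 19.3%. The median log2FC was -1.27 over the 8 genes and -0.02 over all genes tested. With library totals alone, without TMM factors, the median of all genes was 0.17, 4.86% of genes were called downregulated and 18.3% upregulated, and the 8 genes kept their directions and calls. Changes ranged from -3.17 for *Arr3* to 1.06 for *Gnb3*, so the parts of a single cascade did not change by a common factor. The CPM of the 8 genes summed to between 1099 and 1361 per WT library and between 797 and 848 per SCA7 library.

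**Figure D1:**
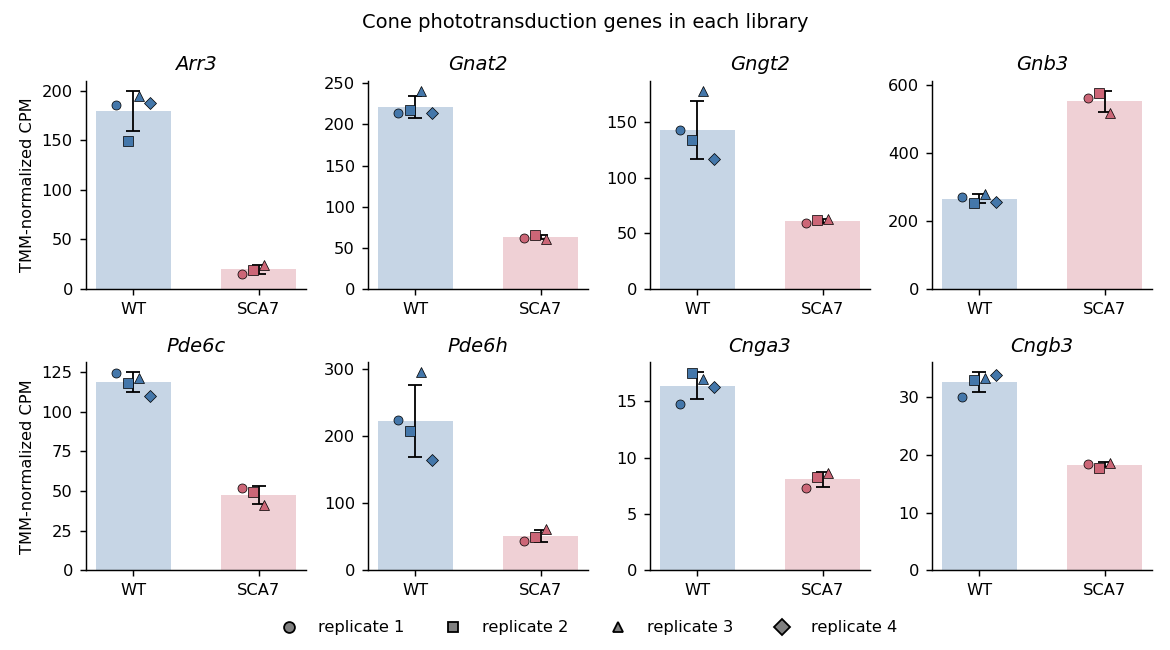
Expression of the 8 cone genes in each library, in TMM-normalized CPM on linear axes that start at 0, with bars for the mean and error bars for the SD of 4 WT and 3 SCA7 libraries. The points of the genotypes do not overlap in any panel, and SCA7 is the higher genotype in the panel of *Gnb3* alone.

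*Arr3* encodes cone arrestin, which quenches the activated cone opsins. Its level was 186, 149.8, 195 and 188 CPM in WT replicates 1 to 4, against 15.6, 19.3 and 24.7 CPM in SCA7 replicates 1 to 3. All SCA7 libraries thus lay far below the lowest WT library. The mean went from 180 ± 20.4 to 19.9 ± 4.56 CPM and decreased by 88.9% (log2FC -3.17, SE 0.17, adjusted p = 2.5e-06). This was the deepest decrease of the 8 genes, and with a coefficient of variation (CV) of 23.0% *Arr3* was also the most variable of them among SCA7 mice. The gene lies on the X chromosome (GRCm38 chrX:100605497-100618493, plus strand, ENSMUSG00000060890).

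The 250 bases before the RefSeq start of *Arr3* and of *Pde6h* are shown since they are the windows at the RefSeq starts of the 2 members with the largest decreases. TAATC, read on either strand (GATTA on the other), is the core bound by homeodomain factors of the CRX and OTX type and stands in capitals. Its letters were chosen with the sequences in view. The windows are chrX:100605247-100605496 and chr6:136954273-136954522 of GRCm38.p6, both on the plus strand, 5′ to 3′. The *Pde6h* window lies inside the annotated span of the gene, outside its exons, and that of *Arr3* ends 1 base before the gene.
*Arr3*: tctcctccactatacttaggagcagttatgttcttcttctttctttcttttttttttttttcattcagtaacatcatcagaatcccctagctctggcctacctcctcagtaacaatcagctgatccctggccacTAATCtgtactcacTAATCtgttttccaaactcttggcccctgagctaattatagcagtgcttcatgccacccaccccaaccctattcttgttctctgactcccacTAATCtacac
*Pde6h*: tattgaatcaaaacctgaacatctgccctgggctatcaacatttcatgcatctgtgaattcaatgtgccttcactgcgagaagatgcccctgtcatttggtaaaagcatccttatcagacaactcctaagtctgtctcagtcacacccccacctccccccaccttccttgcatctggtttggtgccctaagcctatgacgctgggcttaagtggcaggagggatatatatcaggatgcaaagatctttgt

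The *Arr3* window held 3 matches, 116, 102 and 10 bases before the start, and the *Pde6h* window held none of these letters. At least 1 match was present in 19.8% of all 32851 RefSeq mouse windows of this length, and 3 or more in 0.554%. *Gnat2* had 1 match, shown in capitals in the 29 bases at chr3:108093036-108093064 (plus strand), ggacaatccccgGATTAggaaggagctct. All 250 bases of this *Gnat2* window lie in annotated exon, inside the span of the gene. Neither window of *Cnga3* had one. A match is a description of the letters and not a site of binding. No window was at hand for *Gngt2*, *Gnb3*, *Pde6c* or *Cngb3*.

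*Gnat2* encodes the alpha subunit of cone transducin, which carries the signal from opsin to the phosphodiesterase (chr3:108092789-108101432, plus strand, ENSMUSG00000009108). It was at 214, 217, 241 and 214 CPM in the WT libraries, with replicate 3 apart from the other three, and at 61.6, 65.4 and 60.8 CPM in the SCA7 libraries. The mean went from 221 ± 13 to 62.6 ± 2.44 CPM and decreased by 71.7% (log2FC -1.82, SE 0.07, adjusted p = 1.2e-08).

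*Gngt2* encodes the gamma subunit, a small lipid-anchored partner of the beta subunit (chr11:95837216-95845734, plus strand, ENSMUSG00000038811). WT mice differed more in this gene, with 143, 134, 178 and 117 CPM, whereas the SCA7 values of 59.0, 61.6 and 62.8 CPM lay close together. From 143 ± 25.8 CPM it went to 61.1 ± 1.97 CPM and decreased by 57.2% (log2FC -1.22, SE 0.12, adjusted p = 3.8e-05). *Gngt2* shares 234 exon bases with *Abi3* on the opposite strand, and the strand setting of the counting was not given in the sources used here. The mean of *Abi3* was 2.30 CPM (WT) and 1.76 CPM (SCA7).

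*Gnb3*, the beta subunit of cone transducin, moved in the opposite direction (chr6:124834240-124840275, minus strand, ENSMUSG00000023439). Its level was 272, 252, 281 and 256 CPM in WT and 564, 576 and 518 CPM in SCA7. The WT libraries were as tight as for any member (CV 5.08%), and the SCA7 libraries varied little more (5.49%). The mean increased from 265 ± 13.5 to 553 ± 30.3 CPM, by 108% (log2FC 1.06, SE 0.07, adjusted p = 5.5e-07).

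The cone phosphodiesterase is a dimer of identical catalytic subunits, encoded by *Pde6c*, with small inhibitory subunits encoded by *Pde6h*. *Pde6c* (chr19:38132781-38183958, plus strand, ENSMUSG00000024992) was at 125, 118, 121 and 110.0 CPM in WT and at 52.1, 49.6 and 41.4 CPM in SCA7. It went from 119 ± 6.30 to 47.7 ± 5.59 CPM and decreased by 59.8% (log2FC -1.31, SE 0.08, adjusted p = 5.0e-07). *Pde6h* (chr6:136923832-136968865, plus strand, ENSMUSG00000064330) was at 223, 207, 295 and 165 CPM in WT, the widest spread of any member (CV 24.4%), and at 44.2, 49.5 and 61.3 CPM in SCA7. Despite that spread the genotypes stood far apart, and the mean went from 222 ± 54.2 to 51.7 ± 8.76 CPM and decreased by 76.7% (log2FC -2.10, SE 0.22, adjusted p = 4.8e-04). WT replicate 3 was the highest and WT replicate 4 the lowest WT library for both *Gngt2* and *Pde6h*. Without WT replicate 3 the log2FC was -1.10 for *Gngt2* and -1.94 for *Pde6h*, and both stayed called. *Pde6h* shares 136 exon bases with *Arhgdib* on the opposite strand, whose mean was 4.15 CPM (WT) and 3.41 CPM (SCA7).

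The channel genes had the lowest levels and the smallest decreases. *Cnga3* encodes the subunit that can form a channel alone, and *Cngb3* the modulatory subunit that joins it in the native channel. *Cnga3* (chr1:37214434-37263384, plus strand, ENSMUSG00000026114) was at 14.8, 17.5, 17.0 and 16.3 CPM in WT and at 7.31, 8.28 and 8.66 CPM in SCA7, and its mean decreased by 50.6% (log2FC -1.02, SE 0.09, adjusted p = 5.2e-06). *Cngb3* (chr4:19280850-19510623, plus strand, ENSMUSG00000056494) was at 30.2, 33.1, 33.4 and 33.9 CPM in WT and at 18.5, 17.8 and 18.7 CPM in SCA7, and its mean decreased by 43.8% (log2FC -0.83, SE 0.06, adjusted p = 2.5e-06). The SCA7 values of *Cngb3* were the closest together of all 8 genes (CV 2.37%).

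To compare levels between genes, counts were scaled to the library and expressed per kilobase of the gene's median transcript (RPK), the measure used in the study. In WT, *Gngt2* was at 17206 RPK, *Arr3* at 15620, *Gnat2* at 15327, *Gnb3* at 14104 and *Pde6h* at 11323 RPK, and the libraries of each neighbouring pair in this order overlapped. *Pde6c* followed at 2986 RPK, below every *Pde6h* library, and *Cnga3* (529 RPK) and *Cngb3* (479 RPK) came last and overlapped with each other. With this length the 3 transducin subunits were at like RPK in WT, at a *Gnat2*/*Gnb3* ratio of 1.09 ± 0.0461 (SD, n = 4). *Gnb3* RNA from ON bipolar cells is counted too, so this ratio describes the whole retina and not cones alone. In SCA7 that ratio was 0.148 ± 0.00521 (n = 3), as *Gnb3* stood at 29663 RPK beside *Gnat2* at 4373 and *Gngt2* at 7431 RPK. *Arr3* left its place near the top and stood at 1743 RPK, between *Pde6h* (2656) and *Pde6c* (1211), with *Cngb3* at 271 and *Cnga3* at 263 RPK. The RPK levels depend on the length taken for each gene: with the union of exons, *Gnb3* was the highest in WT at 6953 RPK and *Arr3*, *Gngt2* and *Gnat2* were at 5266, 5253 and 5102 RPK. The order also turned at 2 places with that length, as *Pde6h* (1955 RPK) lay below *Pde6c* (2755 RPK) and *Cnga3* (286 RPK) below *Cngb3* (479 RPK), so the closeness of *Pde6h* to the top 4 genes rests on the median transcript length.

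**Figure D2:**
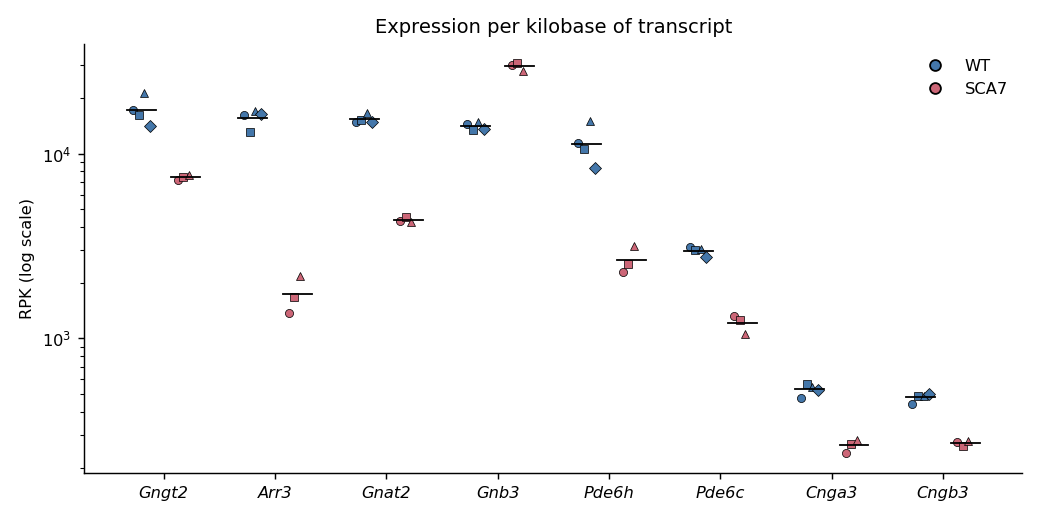
RPK of the 8 cone genes on a log axis, 1 point per library and a line at the mean of each genotype, ordered by the WT mean. With this length the top 5 genes lie close together in WT (with the union of exons *Pde6h* drops to 1955 RPK), while in SCA7 *Gnb3* stands at 29663 RPK and *Arr3* at 1743 RPK.

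To find which members changed by different amounts, the log2 ratio of each pair of members was taken within each library and compared between genotypes by an exact two-sided permutation test over the 35 ways to assign the genotypes. The smallest p this design allows is 0.0286. Of the 28 pairs, 23 passed after Benjamini-Hochberg adjustment over the 28 (adjusted p = 0.0348, exact permutation test), each at the smallest p. This test took the absolute difference of means and replaced, after its values were seen, a first version that doubled the smaller tail. In that version the smallest p is 0.0571 and 0 of the 28 pairs passed. The 23 pairs included all 7 pairs with *Gnb3* and 16 of the 21 pairs without it. How often ratios of other genes would pass was not examined. With limma over the same ratios 23 pairs also passed, with *Gngt2*/*Cngb3* in place of *Cnga3*/*Cngb3*, which lost its call.

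*Arr3* lost more than every other member, by a log2 ratio of -1.11 (SE 0.18) against *Pde6h* and -1.37 (SE 0.22) against *Gnat2*, the members next to it in size of decrease. Within transducin, the *Gnat2* to *Gngt2* ratio fell by 0.61 (SE 0.10) and the *Gnat2* to *Gnb3* ratio fell by 2.88 (SE 0.04) on the log2 scale. Within the phosphodiesterase, *Pde6h* fell further than *Pde6c*, with a *Pde6c*/*Pde6h* change of 0.77 (SE 0.28). At the median transcript length, the RPK ratio of *Pde6c* to *Pde6h* was 0.203 to 0.330 in WT libraries and 0.334 to 0.583 in SCA7 libraries. The genotypes were thus separated by little, and with the union of exons *Pde6c* lay above *Pde6h* in WT. Between the channel subunits the *Cnga3*/*Cngb3* change was -0.19 (SE 0.08), the smallest among pairs of subunits of the same complex. Without SCA7 replicate 1 that change was -0.11. At the median transcript length their RPK ratio was 1.11 in WT and 0.970 in SCA7, and with the union of exons *Cnga3* lay below *Cngb3* in WT. The pairs that missed the threshold were *Gnat2*/*Pde6h* (0.27, SE 0.21), *Gngt2*/*Pde6c* (0.11, SE 0.16), *Gngt2*/*Cnga3* (-0.19, SE 0.14), *Gngt2*/*Cngb3* (-0.38, SE 0.14) and *Pde6c*/*Cnga3* (-0.30, SE 0.18). Without SCA7 replicate 3, *Gnat2*/*Pde6h* was 0.42, *Gngt2*/*Pde6c* was -0.01 and *Pde6c*/*Cnga3* was -0.15. Without SCA7 replicate 1, *Gnat2*/*Pde6h* was 0.17 and *Gngt2*/*Pde6c* was 0.20, and without WT replicate 3, *Gnat2*/*Pde6h* was 0.16, *Gngt2*/*Pde6c* was 0.21 and *Gngt2*/*Cnga3* was -0.09. *Gngt2*/*Pde6c* was 0.06 without WT replicate 4.

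Rods express a paralog of each of these proteins, and all 9 rod counterparts were downregulated, with a median log2FC of -1.11. Rod arrestin *Sag* was at -1.22 (SE 0.11), the rod transducin subunits *Gnat1*, *Gnb1* and *Gngt1* at -1.76, -1.32 and -1.07, and the phosphodiesterase genes *Pde6a*, *Pde6b* and *Pde6g* at -0.67, -1.17 and -1.11. The rod channel genes *Cnga1* and *Cngb1* were at -0.99 and -0.63. Their adjusted p-values (edgeR) were between 5.1e-07 and 1.9e-04. *Gnb1* is also expressed in many cells other than rods. Rods far outnumber cones in the mouse retina, and the level of *Gnat1* was between 9863 and 10693 CPM in the WT libraries against 2504, 3107 and 3439 CPM in the SCA7 libraries. The RPK ratio of *Gnat2* to *Gnat1* was 0.0164 ± 0.00143 (SD, n = 4) in WT and 0.0160 ± 0.00262 (n = 3) in SCA7. For arrestin, *Sag* was between 6563 and 7589 CPM in WT and at 2428, 3289 and 3171 CPM in SCA7, and the RPK ratio of *Arr3* to *Sag* went from 0.0550 ± 0.00931 to 0.0141 ± 0.00206. *Gnb1* was at 5141 to 5190 CPM in every WT library, the narrowest range among the rod genes, and at 1764, 2139 and 2306 CPM in SCA7. The RPK ratio of *Gnb3* to *Gnb1* went from 0.0418 ± 0.00207 to 0.221 ± 0.0386.

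**Figure D3:**
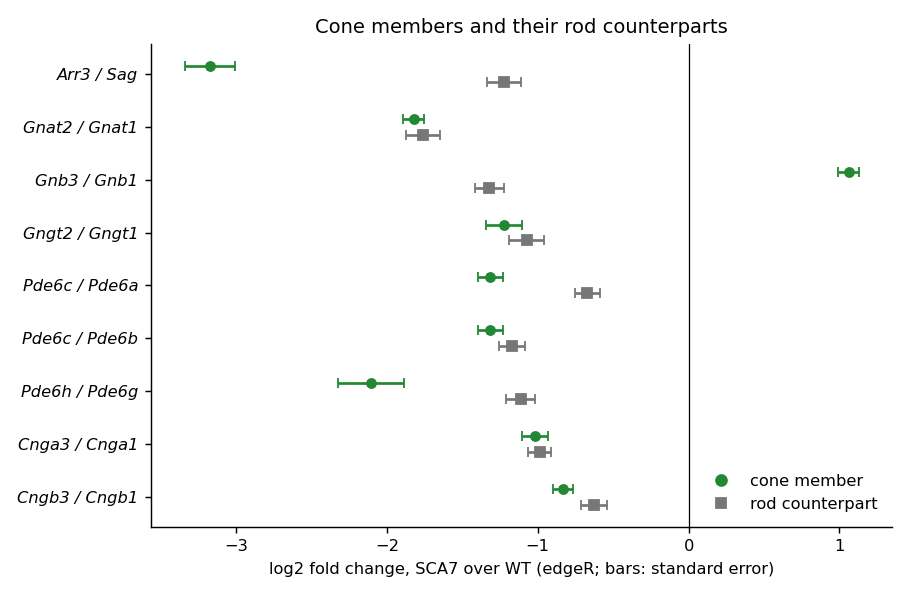
Log2FC (SCA7 over WT) from edgeR with its standard error for each cone gene (circles) and its rod counterpart (squares). The bars overlap for *Gnat2* and *Gnat1*, *Gngt2* and *Gngt1*, *Pde6c* and *Pde6b*, and *Cnga3* and *Cnga1*. They do not for the other pairs, *Cngb3* and *Cngb1* included. Circle and square lie far apart for arrestin and on opposite sides of 0 for *Gnb3* and *Gnb1*.

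The difference between a cone gene and its rod counterpart was tested on the log2 ratio within each library over 9 pairs. The *Gnat2*/*Gnat1* ratio changed by -0.05 (SE 0.15, exact permutation p = 0.857), was between -0.17 and 0.07 with a library left out, and the libraries of the genotypes overlapped. The *Cnga3*/*Cnga1* ratio changed by -0.03 (SE 0.05, exact permutation p = 0.543), the tightest of the 9. Changes of -0.14 for *Gngt2*/*Gngt1*, -0.15 for *Pde6c*/*Pde6b* and -0.20 for *Cngb3*/*Cngb1* were likewise within the overlap of the libraries. Single libraries moved these values: without SCA7 replicate 1 or 3 in turn, *Gngt2*/*Gngt1* was -0.21 or -0.08 and *Pde6c*/*Pde6b* was -0.29 or -0.02, and *Cngb3*/*Cngb1* was -0.13 without WT replicate 3. The *Cnga3*/*Cnga1* change was between -0.07 and -0.01 with a library left out.

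In 4 pairs the genotypes did not overlap, each at the smallest p of 0.0286 (exact permutation test). Single genes were separated in this way with SCA7 lower for 18.3% and with SCA7 higher for 19.3% of all genes tested. The share among ratios of other genes was not examined. *Arr3*/*Sag* had WT values of -5.66 to -5.07 and SCA7 values of -7.41 to -7.01, a change of -1.96 (SE 0.18). *Pde6h*/*Pde6g* changed by -0.96 (SE 0.19) and *Pde6c*/*Pde6a* by -0.65 (SE 0.14), toward less of the cone gene. *Gnb3*/*Gnb1* had WT values of -4.35 to -4.21 and SCA7 values of -2.15 to -1.65, a change of 2.39 (SE 0.15). After adjustment over the 9 pairs these 4 stood at 0.0643 and 0 of 9 passed, since a design with 7 libraries cannot go lower when 4 of 9 pairs reach its limit. With limma over the 9 ratios the same 4 pairs passed, with adjusted p-values between 7.2e-15 and 1.5e-04.

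**Figure D4:**
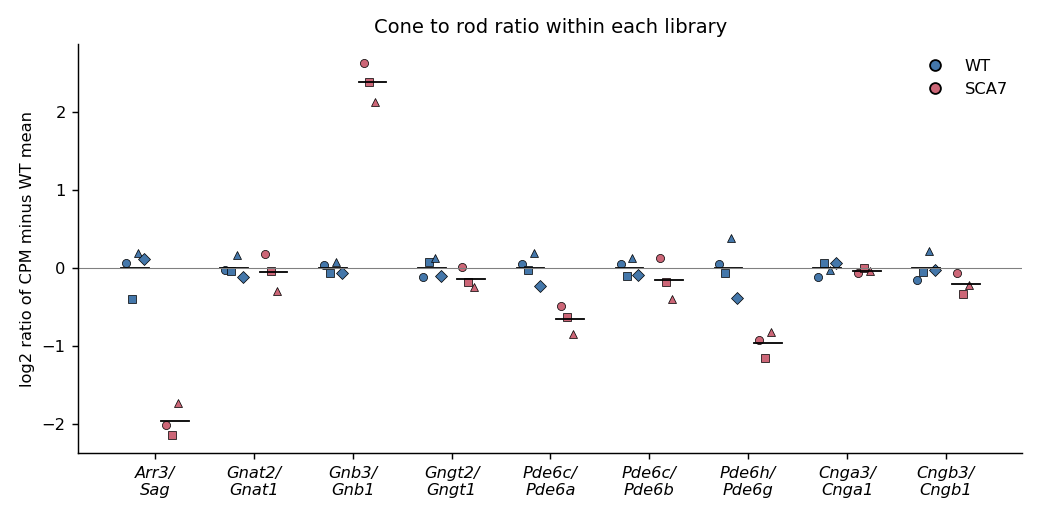
Log2 ratio of CPM of each cone gene to its rod counterpart in each library, minus the WT mean of that pair, with a line at each genotype's mean. WT and SCA7 points mix at *Gnat2*/*Gnat1* and *Cnga3*/*Cnga1*, SCA7 lies lower at *Arr3*/*Sag*, *Pde6c*/*Pde6a* and *Pde6h*/*Pde6g*, and higher at *Gnb3*/*Gnb1*.

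*Gnb3* is also expressed in ON bipolar cells, which receive the photoreceptor signal through the receptor encoded by *Grm6*, a G protein cascade and the channel encoded by *Trpm1*. None of the 11 ON bipolar genes examined was upregulated, and 3 were downregulated: *Lrit3*, a leucine-rich repeat protein of the photoreceptor to bipolar synapse that photoreceptors also make (log2FC -0.91), *Pcp2*, a modulator of G protein signalling (-0.74), and *Gng13*, the G protein gamma subunit of these cells (-0.56). The median log2FC of the 11 genes was -0.32. *Grm6* was at -0.43 (adjusted p = 0.0038 in edgeR) and *Trpm1* at -0.40 (adjusted p = 0.0014). Both were lower in every SCA7 library and missed only the FC threshold. *Gnao1*, the alpha subunit of the bipolar cascade, was at 0.06, was not called, and its libraries overlapped. For 7 of the 11 genes every SCA7 library lay below every WT library, against 18.3% of all genes tested, and for 4 the genotypes overlapped. Among the other G protein beta subunits, *Gnb2*, expressed in most tissues, was upregulated from 100.4 to 174 CPM (log2FC 0.79, SE 0.06, adjusted p = 1.9e-06 in edgeR). *Gnb4* was at 0.15 and *Gnb5*, the partner of the transducin-deactivating *Rgs9*, at -0.51 with an FC of 0.702, just outside the threshold.

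**Figure D5:**
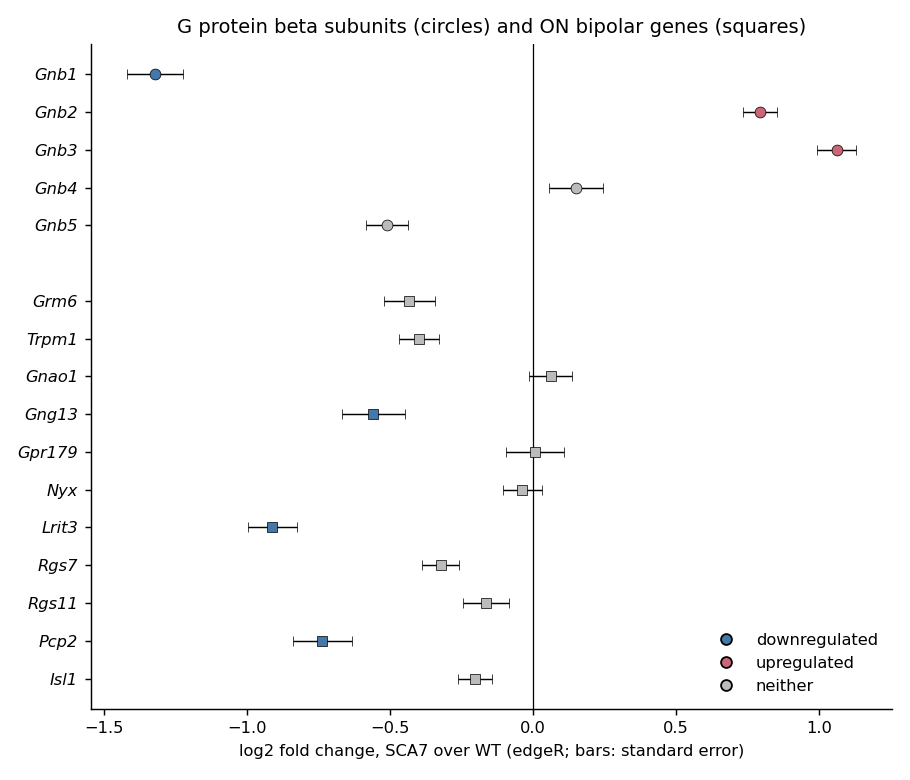
Log2FC (SCA7 over WT) with its standard error from edgeR for the 5 G protein beta subunits (circles) and 11 ON bipolar genes (squares), coloured by call. *Gnb3* (1.06) and *Gnb2* (0.79) are upregulated, and 0 of the 11 ON bipolar genes is.

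Genes next to the members on the chromosome were examined to see whether a member's change was shared by its locus. Of the 16 nearest tested protein-coding neighbours, 1 was called, against 7.91% of all genes tested called downregulated and 7.47% upregulated. It was *P2ry4* next to *Arr3* (log2FC -2.03, SE 0.43), a gene with few counts (WT 0.233 CPM, SCA7 0.0522 CPM). *Pdzd11* (0.27), *Gnai3* (0.28) and *Cpne3* (0.31), next to *Arr3*, *Gnat2* and *Cngb3*, were higher at an edgeR adjusted p under 0.05 but missed the FC threshold. The neighbours of *Gnb3* are 539 and 814 bases away: *Cdca3* was at 0.03 (SE 0.16) and *P3h3* at 0.22 (SE 0.11), and neither was called.

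The protein-coding genes of at least 10 CPM closest to each member in log2 CPM over the 7 libraries, centred on WT and ranked by root mean square difference, were read as a description. Closest to *Cnga3* were *Cnga1* (0.0643), its rod counterpart, and *Guca1a* (0.0729), which encodes a guanylate cyclase activator. *Gnat2* lay closest to *Rabgef1* (0.139) and then to its rod counterpart *Gnat1* (0.154). *Gnb3* lay closest to *Pdpn* (0.0753) and *Clu* (0.0766). *Arr3* lay farthest from its nearest genes, with *Col4a3* at 0.385 and *Kcne2* at 0.503. Since the values are centred on WT, closeness by this measure largely restates a like log2FC. For the other members the nearest gene was *Slc9a7* for *Gngt2* (0.0768), *Spc25* for *Pde6c* (0.135), *Vip* for *Pde6h* (0.218) and *Cacna2d3* for *Cngb3* (0.0546).

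Upstream of the members, the cone opsin genes *Opn1sw* (531 to 6.49 CPM) and *Opn1mw* (111 to 1.24 CPM) had a median log2FC of -6.36, lower than that of *Arr3*. Of 12 further genes of the phototransduction cascade, most of them shared with rods, 8 were downregulated and 0 upregulated, with a median log2FC of -0.79. *Guca1b*, another guanylate cyclase activator, had the lowest value (-1.65), followed by *Guca1a* (-1.05) and by *Pdc*, which binds the beta and gamma subunits of transducin (-1.01). The opsin kinase *Grk1* was at -0.95, the calcium sensor *Rcvrn* at -0.78 and the guanylate cyclases *Gucy2e* and *Gucy2f* at -0.68 and -0.79. In the complex that speeds transducin shut-off, the anchor *Rgs9bp* was downregulated (-0.90), *Gnb5* was lower in every SCA7 library but just missed the FC threshold, and *Rgs9* was at -0.16 and not called. Differences between these genes were not tested. *Aipl1*, the chaperone of the photoreceptor phosphodiesterase, was at -0.17 and was not called. *Slc24a2*, a sodium, calcium and potassium exchanger of cones and other neurons, had the highest (0.36, adjusted p = 0.0047 in edgeR, FC 1.28) and was not called.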

How the data were processed

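Stranded total RNA-seq libraries (ribosomal RNA depleted, single reads) were mapped to mm10 by the authors with TopHat2 2.0.14 and Bowtie2 2.1.0 and counted per Ensembl gene with HTSeq 0.6.1, per the methods and the submitters' processing notes. They deposited raw counts, not normalized. The HTSeq mode and strand option were not given in the sources used here. Names, positions and lengths came from GENCODE M21 (GRCm38), promoter windows from RefSeq (GRCm38.p6).

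Genes were filtered with filterByExpr and compared with edgeR 4.0.16 (TMM, robust glmQLFit and quasi-likelihood test, no covariates) in R 4.3.3, with Benjamini-Hochberg adjustment over 20128 genes. The SE of a log2FC is its size divided by the square root of F. RPK used DESeq2 1.42.0 size factors. Log2 ratios of CPM within libraries, without pseudocount, were compared by exact permutation of the absolute difference of means. A first version doubled the smaller tail, and this was replaced after its values were seen.

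The members and lists were chosen with earlier results of these data known. Named genes are the 8 members, their rod counterparts, fixed related lists, overlapping and neighbouring genes and the 2 genes of nearest profile per member. The fit was tested on simulated counts. No 2 libraries of the same genotype were duplicates by a chi-square test of counts.

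Alternatives were other normalizations, filters and tools (DESeq2, limma-voom, and limma 3.58.1 for ratios), the replicate block, *Xist* as a covariate, no FC threshold, other lengths and each library left out. Same-numbered samples had deviations correlated at 0.0096, 0.197 and 0.0787, so the numbers were not taken to pair the mice. ChIP-seq, RT-qPCR and protein data were not analysed here.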

Additional observations from a re-analysis of the deposited data

Results flagged for a closer look

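In WT retina, the *Gnat2* value of replicate 3 (241 CPM) stood apart from the other three (between 214 and 217 CPM). The gap to its nearest neighbour was 0.862 of the range of the 4 libraries, above Dixon's 95% critical value for 4 samples. This was 1 of 17 sets of WT values checked, and chance gives about 1 in 20. Without WT replicate 3, *Gnat2* kept its direction and call. WT replicate 3 was also the highest WT library for *Arr3*, *Gngt2*, *Gnb3* and *Pde6h*.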

How the results depend on the processing

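The 8 members kept their direction and call in each of the 15 other fits, and 7 were called downregulated and 1 upregulated in all 16 alternatives, no FC threshold included. Over these fits log2FC lay between -3.36 and -2.98 for *Arr3*, -1.85 and -1.63 for *Gnat2*, -1.31 and -1.03 for *Gngt2*, 1.03 and 1.25 for *Gnb3*, -1.38 and -1.12 for *Pde6c*, -2.25 and -1.91 for *Pde6h*, -1.07 and -0.83 for *Cnga3* and -0.87 and -0.64 for *Cngb3*. With the replicate number as a block, 7 members were again called downregulated and 1 upregulated, and calls over all genes went from 1592 to 1706 downregulated and from 1504 to 1629 upregulated. The count of cone to rod pairs past the test was 0 with the exact permutation test and 4 with limma over the 9 ratios. The first version of the permutation test doubled the smaller tail, which makes the smallest p 0.0571, and with it 0 of 28 member pairs passed. The absolute difference of means, with 23 of 28, was chosen after those values were seen. Ratios with a library left out or with the block gave values but no count, since too few splits remain to pass. The median WT level of the 8 members was 12664 RPK with the median transcript length and 3772 RPK with the union of exons.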

Other observations

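Cone genes outside the cascade did not share 1 direction. Of 6 examined, 3 were downregulated: *Kcne2*, a potassium channel accessory subunit (log2FC -2.50), *Ccdc136* (-0.83) and *Thrb*, the thyroid hormone receptor needed for M cones (-0.66). *Otop3*, a proton channel gene, was upregulated (0.54). *Rxrg*, a nuclear receptor of cones that is also present in other retinal cells, was at 0.04 and *Sall3*, a zinc finger factor also found in inner neurons, at 0.06, and neither was called. Among 6 tested paralogs of the members from other tissues, 2 were upregulated. These were *Gnb2* and the taste transducin gene *Gnat3* (log2FC 1.95), with means of 0.219 CPM (WT) and 0.874 CPM (SCA7).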
